A study of Mus musculus with 15 samples.

Results

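Autophagy and lysosome genes were compared between male mice without Cpt1b in their skeletal muscle and male controls, in RNA of the gastrocnemius, a large muscle of the calf. The set holds 38 genes chosen by symbol: 21 of autophagosome formation, 5 cargo receptors and mitophagy genes, 3 lysosomal transcription factors and 9 lysosomal proteins. All 38 were among the 13602 symbols of the count table. Of these 38 genes, 37 passed the filter on low counts and were tested with 11062 genes in all; Tfe3 was the one left out.

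Autophagy encloses cytoplasm, protein aggregates or whole mitochondria in a double membrane, the autophagosome, which fuses with the lysosome so that its load is digested. The ULK1 kinase complex starts the process, a lipid kinase complex around Beclin 1 marks the membrane, and conjugation enzymes attach LC3 and GABARAP proteins to it, to which cargo receptors such as p62 bind. In skeletal muscle the pathway clears damaged mitochondria and supplies fuel in fasting, and its loss or excess both lead to loss of muscle mass. The transcription factors TFEB, TFE3 and MITF switch on lysosomal and autophagy genes when they enter the nucleus.

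There were 7 libraries of the genotype labelled Cpt1b skeletal muscle knockout and 8 of the genotype labelled wild type with the floxed gene, hereafter KO and control. CPT1B is the muscle enzyme that lets long-chain fatty acids into mitochondria. Titles and protocols describe chow feeding for 12 to 14 weeks, while the field for diet gives 45% HFD for all 15. The Cre driver, the deleted part of the gene and the age of the mice are not given in the sources used here. Libraries were made by SAGE, which reads 1 short piece (a tag) of a transcript, close to its 3' end, so that a count does not scale with transcript length.

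Total counts ran from 8334436 to 19397255 per library. Levels are given as CPM (tag counts over the library total after TMM scaling), with the lowest, median and highest library of each group. Fold changes are log2 values of KO over control with standard errors, and adjusted p-values are edgeR's quasi-likelihood p with Benjamini-Hochberg adjustment over all 11062 genes. Cpt1b itself had 1.10, 3.83 and 6.46 CPM in KO libraries, against 4.44, 6.51 and 13.1 CPM in controls (log2 -1.03 ± 0.31, edgeR adjusted p = 0.103; two-sided exact permutation p = 0.00389 over 6435 splits). Its tag may lie outside the deleted part and then does not check the genotype. The 10 markers of muscle fibres summed to between 68028 and 113159 CPM in KO libraries and between 88788 and 116484 CPM in controls, and all 10 had counts in every library. Of these markers 8 had a negative fold change, and Tnnt3, a troponin of fast fibres, was called lower (log2 -0.65, edgeR adjusted p = 0.00629), with all 7 KO libraries below every control. Myh2 (log2 0.79, edgeR adjusted p = 0.307) and Myh1 (log2 0.64, edgeR adjusted p = 0.401) had positive fold changes and were not called. The part of fibre content in the values that follow was not tested.

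The sequences counted for these genes are tags of the following kind. Each is the 27 bases from the last CATG onward in the leading GENCODE M21 transcript (GRCm38), predicted here from the usual anchoring site of SAGE, which the labels do not name. The capitals mark CATG. The 5 tags of the LC3 and GABARAP family are shown because these relatives are similar proteins that must be told apart by their tags.
Map1lc3a: CATGttcgggttgctcttttgggtgct
Map1lc3b: CATGttgagttttttttttaattttta
Gabarap: CATGaagaagacttctttctatacatt
Gabarapl1: CATGaatcacagctttgctgtgagctt
Gabarapl2: CATGgtggctcacaaccgtatataatg
The next 5 belong to the other genes whose unadjusted p was lowest in the comparison.
Sqstm1: CATGtagcttcctctgacttggtttgt
Nbr1: CATGtttgagaaaaggtatctgaactc
Tfeb: CATGgaggagggtgatgttctgtgacg
Ctsd: CATGcctcagcctggggtagaggtagg
Lipa: CATGaagctaaagctggttgtggtggc
A tag was predicted for all 38 genes and none of the 38 tags was identical to the predicted tag of another gene. Near matches and other places in the genome were not searched. In 20 genes the transcripts searched, those of the GENCODE basic set, gave 1 predicted tag. Some of these genes, such as Map1lc3a and Gabarapl2, had only 1 transcript in the search, so no second tag could appear. Among the genes printed above, Map1lc3b and Sqstm1 each had 3 predicted tags over their transcripts, and Nbr1, Tfeb and Gabarapl1 each had 2. Which of its tags the authors assigned to each of these genes is not given in the sources used here.

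None of the 37 tested autophagy and lysosome genes rose or fell by edgeR at an adjusted p of 0.05, where 2.17% of all genes tested did. DESeq2 and limma voom called none of them either, against 3.35% and 2.11% of all genes. At an unadjusted p under 0.05 edgeR had 3 genes higher (Map1lc3b, Nbr1 and Lipa) and 3 lower (Sqstm1, Tfeb and Ctsd), or 16.2% of the 37, where 13.6% of all genes had such a p (7.65% higher and 5.92% lower). The fold changes of these 6 kept their sign and moved by no more than 1.5 times in every fit without 1 library. The number of genes at that level did change. Without control replicate 7 there were 12 (7 higher and 5 lower), where 24.6% of all genes had such a p, and without KO replicate 4 there were 2 (1 and 1), where 11.5% did. There were also 2 without control replicate 1 and 3 without control replicate 2, 4 or 8. DESeq2 had 3 higher and 4 lower at that level, and limma voom 3 and 3. For the fits without control replicate 1, 2, 4 or 8, DESeq2 and limma voom, the share of all genes at that level was not counted. Fold changes were positive in 18 genes and negative in 19, with a median of -0.0076, beside a median of 0.0047 over all genes tested. The KO and control ranges overlapped in all 37, whereas they did not overlap in 1.19% of all genes tested. The 95% interval of the fold change stayed within a 2-fold change (log2 of 1 either way) in 32 of the 37 genes. It reached that size in Map1lc3a, Gabarap, Tfeb, Ctsb and Ctsl, so for these 5 a change of that size lies within the error.

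**Figure D1:**
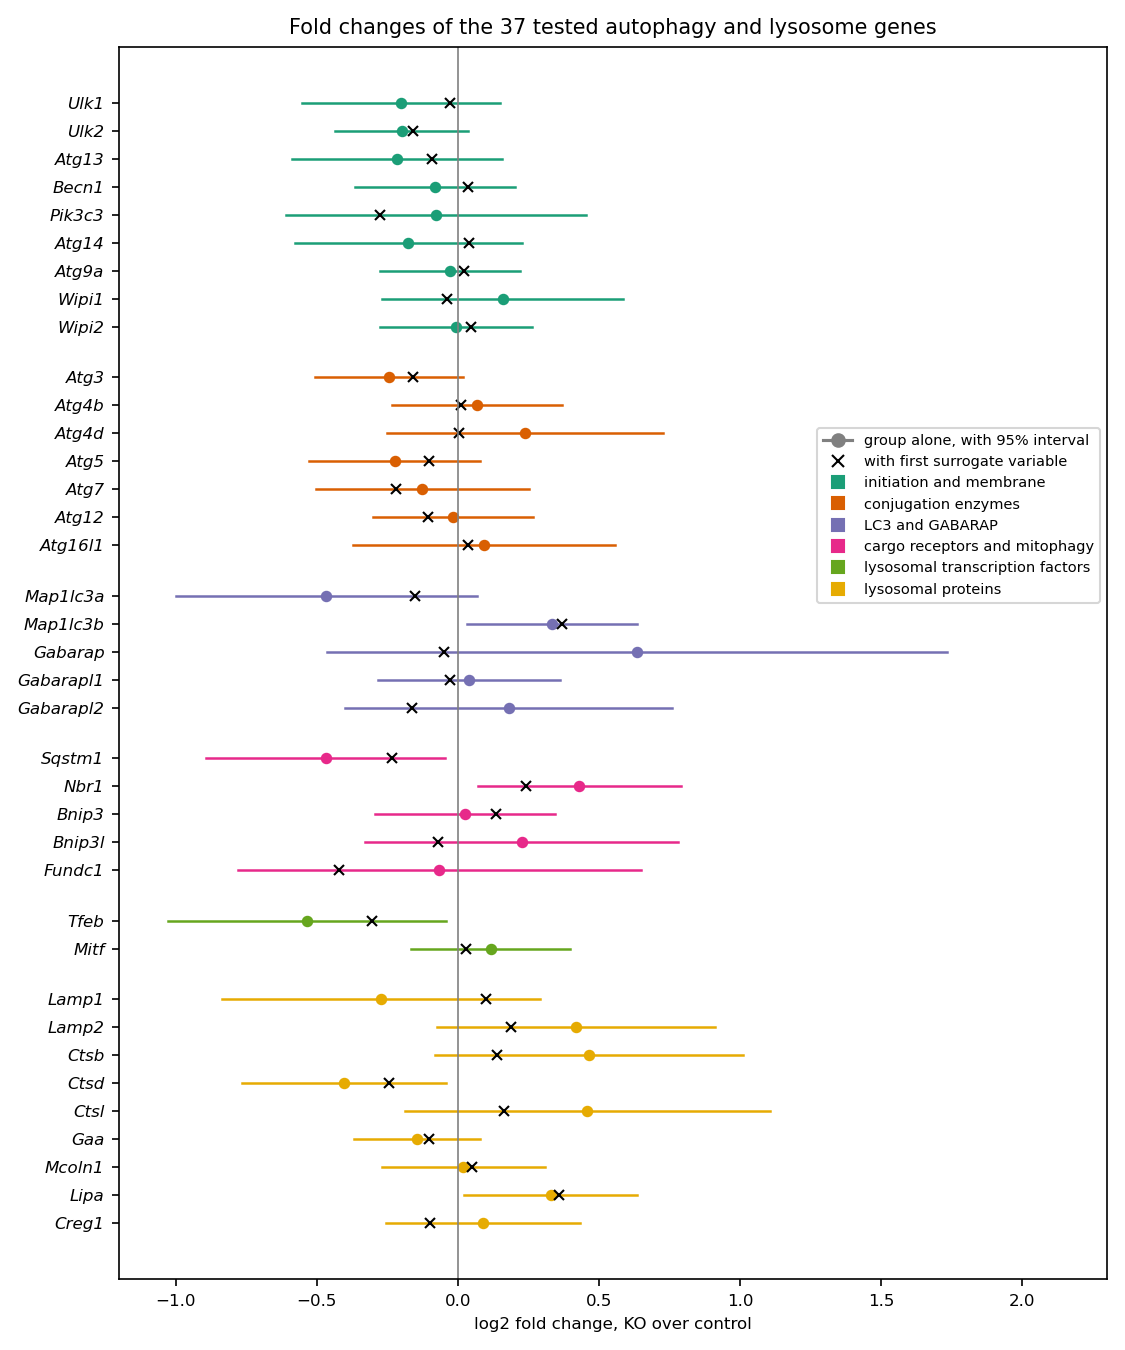
Log2 fold change of KO over control (horizontal axis) for the 37 tested genes by role, as points with 95% intervals from edgeR with the group alone, and as crosses from the fit with the first surrogate variable beside the group. Only 6 intervals leave out 0, and none of the 37 genes passed an adjusted p of 0.05 in either fit.

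The 38 genes took a median of 0.765% of all counts in KO libraries (0.604% to 0.879%) and 0.851% in controls (0.706% to 1.01%). A few genes made up most of this. Sqstm1 gave 30.3% of the tags of the set over all libraries, Bnip3 23.8%, Map1lc3a 10.4%, Ctsd 9.95% and Lamp1 7.31%, or 81.8% together. At the other end Fundc1 averaged 1.06 CPM and Tfe3 0.791 CPM over all libraries. Tfe3 had between 3 and 33 tags per library and was therefore not tested.

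Of the 9 genes that start autophagy and shape the membrane, 8 had a negative fold change and none passed. Ulk2, one of the kinases that start the process (chromosome 11, 61775649 to 61855073, GRCm38), had the smallest p of this group. It stood at 41.0, 50.8 and 58.8 CPM in KO libraries and at 47.3, 59.6 and 65.7 CPM in controls. Every KO library lay below the control median, but only 2 lay below the lowest control (log2 -0.20 ± 0.11, edgeR adjusted p = 0.448, unadjusted p = 0.0909). Its relative Ulk1 had 18.96, 37.6 and 41.7 CPM in KO libraries and 26.9, 40.1 and 53.8 CPM in controls (log2 -0.20 ± 0.17). Atg13, the scaffold of the kinase complex, had a log2 difference of -0.21 ± 0.18. The Beclin 1 gene Becn1 (-0.081 ± 0.135), its partner lipid kinase Pik3c3 (-0.077 ± 0.253) and the adaptor Atg14 (-0.18 ± 0.19) also had intervals that include 0. The lipid scramblase Atg9a, which brings membrane to the growing autophagosome, had medians of 41.9 CPM in KO libraries and 41.1 CPM in controls, with a 95% interval from -0.27 to 0.22. Wipi2, a reader of the lipid mark, had a log2 difference of -0.0076 ± 0.128. Wipi1, a second reader, was the one gene of this group with a positive value (0.16 ± 0.20), and all 7 KO libraries lay above the control median of 6.88 CPM.

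The 7 conjugation genes split into 3 positive and 4 negative fold changes. Atg3, which hands LC3 to its lipid (chromosome 16, 45158785 to 45188538), was the most abundant of them. It had 59.4, 85.3 and 105 CPM in KO libraries and 84.8, 99.7 and 117 CPM in controls. The lowest 3 KO libraries fell outside the control range, and the difference of -0.24 ± 0.13 did not pass (edgeR adjusted p = 0.404, unadjusted p = 0.0661). Atg5, part of the complex that directs LC3 to the membrane, had a log2 difference of -0.22 ± 0.14. Its partners Atg12 (-0.018 ± 0.135) and Atg16l1 (0.093 ± 0.221) and the activating enzyme Atg7 (-0.13 ± 0.18) had between 14 and 195 tags in any library. The proteases that trim and recycle LC3, Atg4b (0.068 ± 0.143) and Atg4d (0.24 ± 0.23), were measured at medians of 5.75 and 4.34 CPM in KO libraries and 4.83 and 4.31 CPM in controls.

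In the LC3 and GABARAP family the 2 LC3 genes lay on opposite sides of 0. Map1lc3b, the LC3 form most used as a marker of autophagosomes (chromosome 8, 121590361 to 121598760), had 213, 293 and 392 CPM in KO libraries and 195, 229 and 294 CPM in controls. Of the 7 KO libraries 3 lay above the highest control and 6 above the control median (log2 0.33 ± 0.14, edgeR adjusted p = 0.319, unadjusted p = 0.0327). Map1lc3a (chromosome 2, 155276297 to 155278073) had 314, 801 and 1032 CPM in KO libraries and 507, 1068 and 1334 CPM in controls. All 7 KO libraries lay below the control median, and the difference of -0.47 ± 0.25 had an edgeR adjusted p of 0.436. The share of Map1lc3b among the family's tags was 18.6% to 36.1% in KO libraries (median 25.0%) and 12.3% to 21.2% in controls (median 18.6%). The share of Map1lc3a was 32.6% to 75.1% in KO libraries (median 64.7%) and 50.0% to 82.9% in controls (median 74.7%). A lower Map1lc3a raises the share of Map1lc3b even at an unchanged Map1lc3b level, so the shares are no separate support for a rise of Map1lc3b. Gabarap had the widest spread of all tested members. It stood at 22.2, 46.4 and 207 CPM in KO libraries and at 16.5, 25.1 and 148 CPM in controls, with 1 library far above the rest in each group (log2 0.63 ± 0.52, edgeR adjusted p = 0.604). Without KO replicate 4 the value was -0.0066, and without control replicate 7 it was 1.28 (edgeR adjusted p = 0.0935). Gabarapl2 showed the same 2 libraries on top, at 156 CPM in KO replicate 4 and 134 CPM in control replicate 7, while all others lay between 42.2 and 82.1 CPM. Gabarapl1 had medians of 12.2 CPM in KO libraries and 11.1 CPM in controls (log2 0.039 ± 0.153).

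The cargo receptors Sqstm1 and Nbr1, which tether ubiquitin-tagged cargo to LC3, also lay on opposite sides of 0. Sqstm1 encodes p62 and was the most abundant gene of the set (chromosome 11, 50199366 to 50210827). It had 1303, 2177 and 2968 CPM in KO libraries and 1585, 2984 and 3817 CPM in controls. All 7 KO libraries lay below the control median, and 2 of them below the lowest control (log2 -0.47 ± 0.20, edgeR adjusted p = 0.315, unadjusted p = 0.0317). Nbr1 (chromosome 11, 101552149 to 101581951) had 72.2, 86.2 and 144 CPM in KO libraries and 47.8, 68.6 and 105 CPM in controls. All 7 KO libraries lay above the control median and 1 above the highest control (log2 0.43 ± 0.17, edgeR adjusted p = 0.273, unadjusted p = 0.0219). This was the smallest p of the 37 genes.

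The mitophagy receptors, which sit on the outer mitochondrial membrane, differed little relative to their error. Bnip3 was the second most abundant gene of the set (chromosome 7, 138890836 to 138909519). It had 1250, 2007 and 2576 CPM in KO libraries and 1412, 1942 and 2114 CPM in controls, and its log2 difference was 0.026 with a 95% interval from -0.29 to 0.34. The coefficient of variation was 24.4% over KO libraries and 11.2% over controls. Bnip3l, also called Nix, had 20.1, 32.5 and 55.7 CPM in KO libraries and 17.6, 22.8 and 58.4 CPM in controls (log2 0.23 ± 0.26). Fundc1 rested on 3 to 41 tags per library and had a 95% interval from -0.78 to 0.65.

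**Figure D2:**
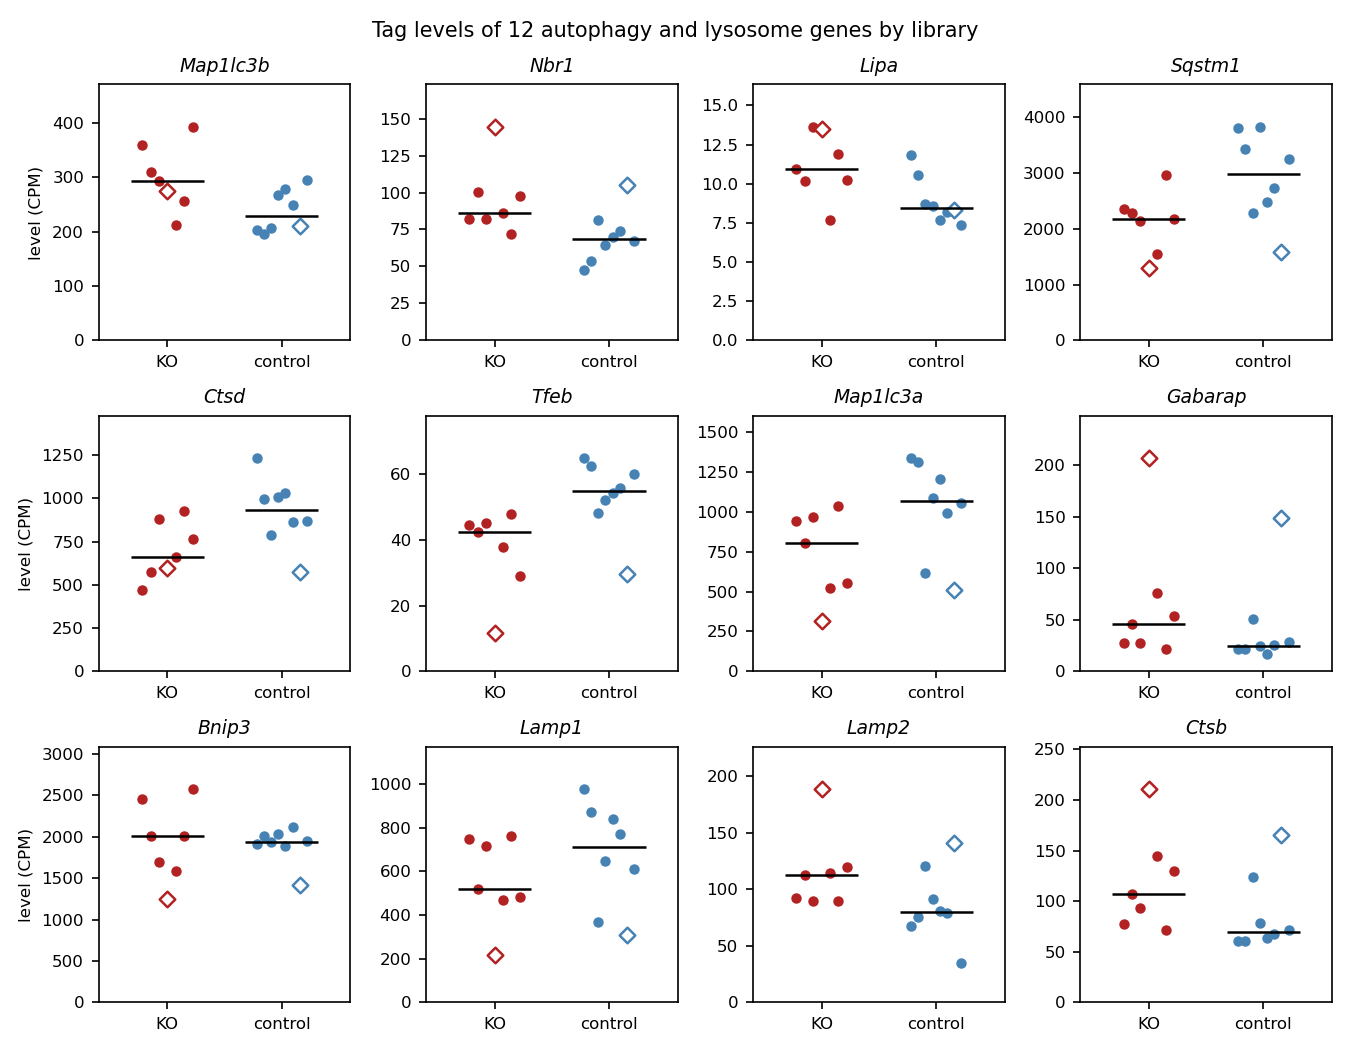
Level in CPM (vertical axes, from 0) of 12 genes in the 7 KO and 8 control libraries, 1 point per library with a bar at the group median; open diamonds are KO replicate 4 and control replicate 7. The groups overlap in every panel, and the 2 diamonds sit at the same end of their groups in Nbr1, Sqstm1, Tfeb, Map1lc3a, Gabarap, Bnip3, Lamp1, Lamp2 and Ctsb.

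Among the lysosomal transcription factors Tfeb had the largest negative fold change of the set. Tfeb (chromosome 17, 47737030 to 47792419) had 11.8, 42.5 and 48.0 CPM in KO libraries and 29.5, 55.1 and 65.0 CPM in controls. All 7 KO libraries lay below the control median, and 2 below the lowest control, control replicate 7 (log2 -0.53 ± 0.23, edgeR adjusted p = 0.324, unadjusted p = 0.0348). KO replicate 4 and control replicate 7 held the lowest Tfeb level of their groups and lay farthest along the leading component described below. Without these 2 libraries the groups no longer overlapped, with 29.0 to 48.0 CPM in KO libraries and 48.2 to 65.0 CPM in controls. Leaving out the control that made the groups overlap fixes this outcome, so it is no independent support for a change in Tfeb. The groups then did not overlap in 2.17% of all genes tested and in 2.7% of the members, Tfeb alone. In that fit Tfeb passed the threshold (log2 -0.48 ± 0.12, edgeR adjusted p = 0.0397), the one call of a member in the 24 alternative fits. That fit called 3.67% of all genes (1.35% lower in KO), more than the 2.17% with all libraries. Mitf had medians of 14.4 CPM in KO libraries and 13.3 CPM in controls (log2 0.12 ± 0.13). Tfe3 had 0.445, 0.757 and 1.57 CPM in KO libraries and 0.290, 0.598 and 1.86 CPM in controls. The level of these transcripts does not show where the proteins are in the cell, which is the step at which they are mainly controlled.

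These factors bind the letters CACGTG, called an E-box, and the promoters of 3 lysosomal genes that hold the most copies are printed for that reason. Each is 300 bases from RefSeq on GRCm38.p6, from 250 bases before the transcription start to 50 after it, on the strand of the gene, with each E-box in capitals.
Lamp1, chr8:13158911-13159210, plus strand: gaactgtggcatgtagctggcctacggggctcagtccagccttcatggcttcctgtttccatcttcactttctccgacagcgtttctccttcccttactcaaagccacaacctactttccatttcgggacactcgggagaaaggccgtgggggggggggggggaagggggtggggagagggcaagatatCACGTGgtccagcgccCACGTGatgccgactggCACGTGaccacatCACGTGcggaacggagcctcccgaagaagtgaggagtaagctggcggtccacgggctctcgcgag
Mcoln1, chr8:3500269-3500568, plus strand: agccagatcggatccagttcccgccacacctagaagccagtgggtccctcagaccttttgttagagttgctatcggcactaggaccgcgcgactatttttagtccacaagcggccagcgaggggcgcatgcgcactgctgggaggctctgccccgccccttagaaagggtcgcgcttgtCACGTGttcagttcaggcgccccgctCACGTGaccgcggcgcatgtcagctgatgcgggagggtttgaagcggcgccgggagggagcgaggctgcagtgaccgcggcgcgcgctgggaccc
Ctsd, chr7:142387778-142388077, minus strand: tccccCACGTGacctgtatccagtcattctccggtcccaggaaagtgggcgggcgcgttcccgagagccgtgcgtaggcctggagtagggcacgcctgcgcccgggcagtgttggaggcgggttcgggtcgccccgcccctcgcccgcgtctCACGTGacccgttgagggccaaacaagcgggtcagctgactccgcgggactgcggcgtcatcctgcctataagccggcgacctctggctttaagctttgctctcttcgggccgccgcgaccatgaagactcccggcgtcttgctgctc
Lamp1 holds 4 E-boxes, and Mcoln1 and Ctsd 2 each. A window was found for 31 of the 38 genes, and 10 of these (32.3%) held CACGTG, which reads the same on both strands: Atg14, Atg3, Atg5, Atg7, Bnip3, Lamp1, Ctsd, Ctsl, Gaa and Mcoln1. Of all 27025 genes with a window 8.09% held it. The longer letters TCACGTG, on either strand and overlapping the E-box, stood in 7 of the 31 and in 4.29% of all genes. The full CLEAR element (TCACGTG extended to a palindrome), the direct-repeat PPAR element and the FoxO element TGTTTAC, each on either strand, stood in none of the 31, against 0.37%, 0.0481% and 4.05% of all genes. The 10 genes with an E-box had 3 positive and 7 negative fold changes, with a median of -0.16 and a range from -0.40 to 0.46. The 20 tested genes with a window and no E-box had 12 positive and 8 negative ones, with a median of 0.079 and a range from -0.53 to 0.63. With the first surrogate variable in the fit there were 5 positive and 5 negative values (median -0.031) with an E-box, and 9 and 11 (median -0.028) without one.

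Of the 9 lysosomal proteins 6 had a positive and 3 a negative fold change, and none passed. Ctsd encodes cathepsin D, the main aspartic protease of the lysosome (chromosome 7, 142375911 to 142388038). It had 468, 662 and 928 CPM in KO libraries and 576, 931 and 1231 CPM in controls. All 7 KO libraries lay below the control median (log2 -0.40 ± 0.17, edgeR adjusted p = 0.313, unadjusted p = 0.0313). The cysteine proteases lay on the other side. Ctsb, cathepsin B, had 71.9, 108 and 211 CPM in KO libraries and 60.6, 69.4 and 166 CPM in controls, with all 7 KO libraries above the control median (log2 0.46 ± 0.26, edgeR adjusted p = 0.450; 0.27 without KO replicate 4). Ctsl, cathepsin L, had 64.6, 125 and 182 CPM in KO libraries and 33.0, 74.6 and 181 CPM in controls (log2 0.46 ± 0.31, edgeR adjusted p = 0.527; 0.71 without control replicate 7).

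The membrane proteins Lamp1 and Lamp2, which line the lysosome, differed in the same way. Lamp1 (chromosome 8, 13159161 to 13175338) had 218, 521 and 761 CPM in KO libraries and 308, 711 and 976 CPM in controls (log2 -0.27 ± 0.27; -0.13 without KO replicate 4). Lamp2 (chromosome X, 38401357 to 38456454) had 89.3, 113 and 188 CPM in KO libraries and 35.1, 79.8 and 141 CPM in controls. Each KO library lay above the control median, and the difference of 0.42 ± 0.23 did not pass (edgeR adjusted p = 0.448) and was 0.26 without KO replicate 4. Lamp2 makes several proteins with different last exons, among them the receptor of chaperone-mediated autophagy. Its transcripts gave 3 predicted tags, which the single row of the count table does not separate.

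Lipa, the lysosomal acid lipase that breaks down triglycerides and cholesteryl esters (chromosome 19, 34492318 to 34527474), had 7.66, 10.9 and 13.6 CPM in KO libraries and 7.33, 8.47 and 11.8 CPM in controls. Of the KO libraries 3 lay above the highest control and 6 above the control median (log2 0.33 ± 0.15, edgeR adjusted p = 0.333, unadjusted p = 0.0375). Gaa, the acid glucosidase that digests glycogen in the lysosome, had the smallest standard error of the set and a log2 difference of -0.15 ± 0.11. The calcium channel Mcoln1 (0.020 ± 0.138) and the lysosomal glycoprotein Creg1 (0.090 ± 0.163) had 95% intervals from -0.27 to 0.31 and from -0.25 to 0.43. Macrophages and other cells of the muscle also make these proteins, and in bulk tissue fewer cells of a type and less RNA per cell cannot be told apart. The 11 macrophage markers in the table summed to 138 to 250 CPM in KO libraries and 128 to 301 CPM in controls, with 9 of 10 tested markers negative and none called. At an unadjusted edgeR p under 0.05, 2 of them were lower, Csf1r (log2 -0.52, edgeR adjusted p = 0.359) and Lyz2 (log2 -0.81, edgeR adjusted p = 0.367). The 7 fibroblast markers summed to 1270 to 3153 CPM in KO libraries and 2258 to 3943 CPM in controls, with 5 of 7 negative. None was called, but 4 of the 7 were lower at an unadjusted p under 0.05, among them Col1a1 (log2 -1.03, edgeR adjusted p = 0.0863) and Col1a2 (log2 -0.64, edgeR adjusted p = 0.139), which encode collagen. The 8 adipocyte markers summed to 374 to 652 CPM in KO libraries and 240 to 369 CPM in controls, with 4 positive and 3 negative values. Lpl, a lipase that muscle fibres also make, was called higher and Lep lower, and without Lpl the other 7 summed to 31.2 to 196 CPM in KO libraries and 42.5 to 110 CPM in controls. Every macrophage and fibroblast marker in the table had counts in all 15 libraries, and the part of these cells in the values above was not tested.

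By role, the median fold change was -0.027 over the 21 genes of autophagosome formation, 0.026 over the 5 cargo receptors and mitophagy genes and 0.090 over the 9 lysosomal proteins, beside 0.0047 over all genes tested. The formation genes had 8 positive and 13 negative values and 1 unadjusted edgeR p under 0.05. The cargo and mitophagy genes had 3 and 2 with 2 such p-values, and the lysosomal proteins 6 and 3 with 2. These were 4.76%, 40% and 22.2% of the groups, beside 13.6% of all genes tested. The groups are small, and a difference between roles was not tested. The median size of the change, whatever its sign, was 0.18, 0.23 and 0.33 in these groups, against 0.20 over all genes tested. These sizes are from the fit with the group alone. With the first surrogate variable Lamp1 (0.10), Lamp2 (0.19), Ctsb (0.14), Ctsd (-0.24), Ctsl (0.16) and Gaa (-0.10) were smaller in size. Mcoln1 (0.051), Lipa (0.36) and Creg1 (-0.098) were larger. The summed level of the lysosomal proteins was 1572 to 2075 CPM in KO libraries and 1544 to 2554 CPM in controls. That of the cargo and mitophagy genes was 2755 to 5068 CPM in KO libraries and 3162 to 5933 CPM in controls.

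Much of the spread of these genes followed a pattern shared by all libraries. The leading principal component of log2 CPM over all genes tested held 44.6% of the variance. KO replicate 4, with a score of 76.2, and control replicate 7, with 51.2, lay farthest along it. KO scores had a median of 15.03 (lowest -18.7) and control scores a median of -22.0 (lowest -43.0), a difference that did not pass (two-sided exact permutation p = 0.145). These 2 libraries were together the highest or together the lowest of their groups in 21 of the 37 genes (56.8%), against 36.7% of all genes tested. Both were highest in 12: Wipi1, Atg4d, Atg12, Gabarap, Gabarapl2, Nbr1, Bnip3l, Fundc1, Lamp2, Ctsb, Ctsl and Creg1. Both were lowest in 9: Ulk1, Atg14, Atg3, Atg5, Map1lc3a, Sqstm1, Bnip3, Tfeb and Lamp1. Pairs of relatives thus split, with Map1lc3a against Gabarap and Gabarapl2, Sqstm1 against Nbr1, Bnip3 against Bnip3l and Lamp1 against Lamp2. The predicted tags of the 12 genes had a median GC content of 38.9% and those of the 9 genes 51.9%, the same as the median of the 16 genes at neither end. Over all genes tested the medians were 40.7% for the 2269 tagged genes highest in both libraries 48.1% for the 1729 lowest in both and 44.4% for the 6856 at neither end. The part of tag composition in these differences was not tested.

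**Figure D3:**
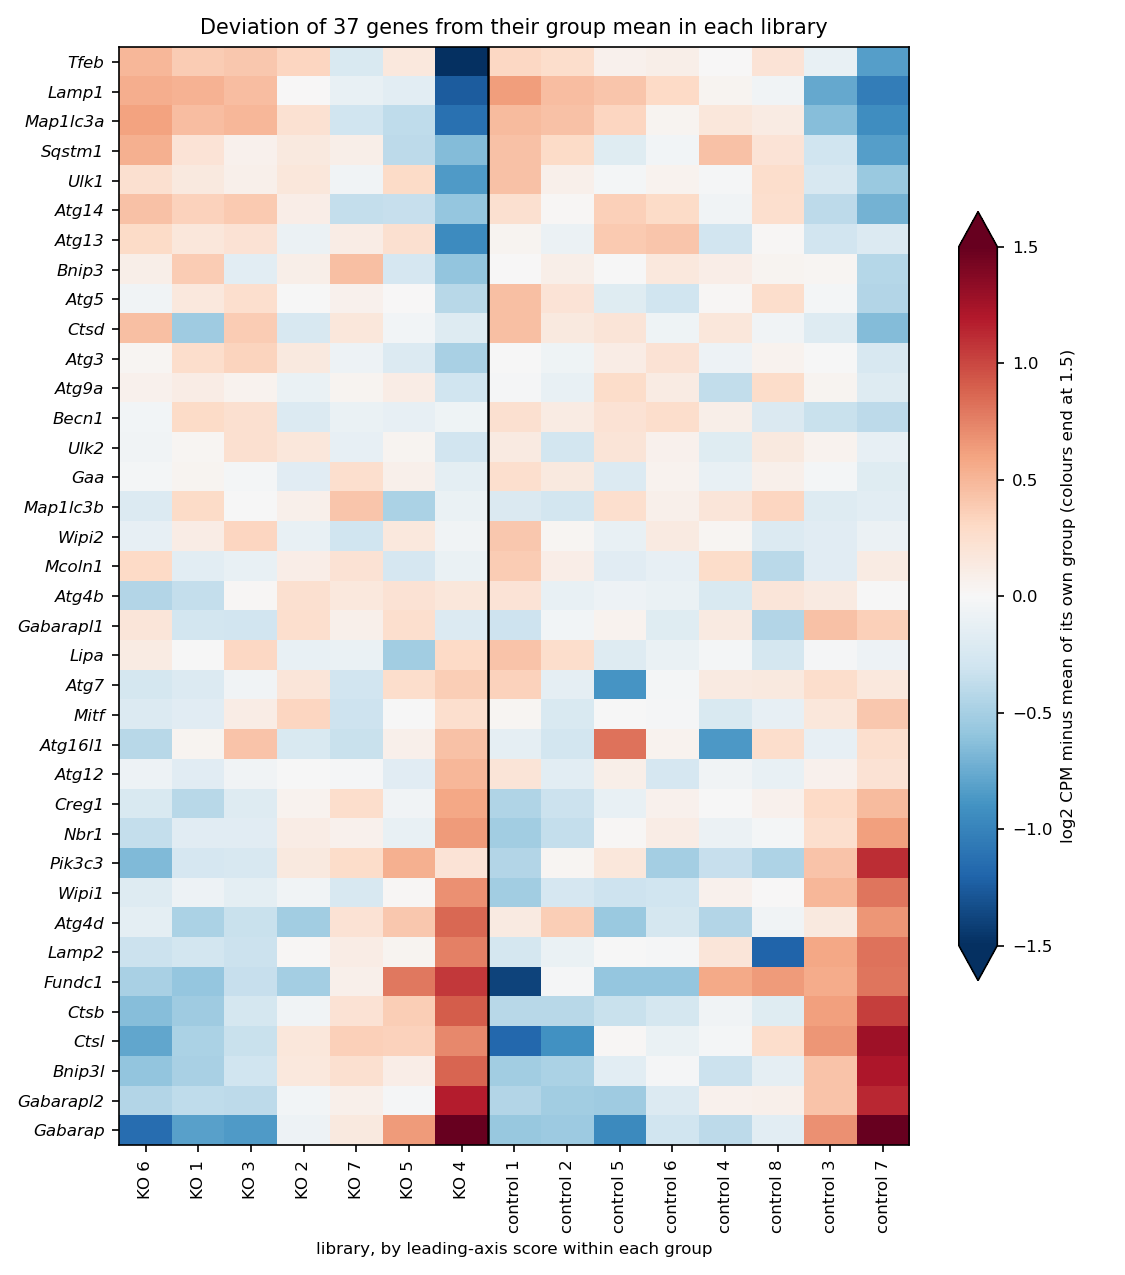
Log2 CPM of the 37 tested genes minus the mean of the library's own group (colour, red above and blue below), with KO libraries left of the line and controls right of it, each ordered by their score on the leading component. The columns of KO replicate 4 and control replicate 7 run from blue at Tfeb, Lamp1 and Map1lc3a to red at Gabarapl2 and Gabarap.

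When the first surrogate variable entered the fit, a term that follows the leading component, the difference was smaller in size in 27 of the 37 genes and larger in 10. Among the larger were Fundc1 (-0.42 ± 0.27, against -0.065 with the group alone), Pik3c3 (-0.27, against -0.077), Atg7 (-0.22, against -0.13), Bnip3 (0.13, against 0.026) and Atg12 (-0.11, against -0.018). Gabarap stood at -0.048 ± 0.113 (0.63 with the group alone), Lamp1 at 0.10 ± 0.08 (-0.27), Map1lc3a at -0.15 ± 0.09 (-0.47) and Ctsb at 0.14 ± 0.08 (0.46). Map1lc3b and Lipa stood at 0.37 ± 0.13 and 0.36 ± 0.14. Nbr1 was 0.24 ± 0.09, Tfeb -0.30 ± 0.13, Sqstm1 -0.23 ± 0.11 and Ctsd -0.24 ± 0.14. In that fit 4.39% of all genes were called (3.13% higher and 1.27% lower) and again none of the 37, with edgeR adjusted p-values of 0.137 for Map1lc3b, 0.165 for Nbr1, 0.200 for Lipa and 0.242 for Tfeb.

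Beyond the 38, the lists of other genes of the pathway held 141 tested genes, of which 4 rose and none fell by edgeR, where 1.67% of all genes rose and 0.497% fell. DESeq2 called 6 of the 141 higher, and 2.28% of all genes. The median fold change of the 141 was -0.016, with 69 positive and 72 negative values. None of the 27 other genes of autophagosome formation and fusion and none of the 17 subunits of the V-ATPase, the proton pump of the lysosome, passed. One gene rose among 21 other receptors of selective autophagy, 1 among 61 other lysosomal hydrolases and membrane proteins, and 2 among 15 genes of mTORC1 control at the lysosome.

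Mtor, the kinase that holds autophagy back when nutrients are present, had 3.76, 7.90 and 9.08 CPM in KO libraries and 2.86, 3.59 and 4.89 CPM in controls. Of the KO libraries 6 lay above every control, and KO replicate 4, the lowest, lay among the controls (log2 0.98 ± 0.18, edgeR adjusted p = 0.00511). This rested on few tags, 68.0 per library on average. Fnip2, which works with folliculin in the control of mTORC1, had 11.0, 13.6 and 17.3 CPM in KO libraries and 7.83, 9.15 and 11.9 CPM in controls, with 6 KO libraries above every control (log2 0.54 ± 0.13, edgeR adjusted p = 0.0433). Fam134b, now named Retreg1 and a receptor for the turnover of the endoplasmic reticulum, had 68.1, 82.3 and 180 CPM in KO libraries and 35.8, 47.4 and 79.5 CPM in controls. The 2 highest values belonged to KO replicate 4 and control replicate 7, each in its group (log2 0.95 ± 0.20, edgeR adjusted p = 0.0156). Scarb2, a lysosomal membrane protein that carries glucocerebrosidase to the lysosome, had 21.2, 25.4 and 37.2 CPM in KO libraries and 11.3, 16.8 and 21.8 CPM in controls (log2 0.66 ± 0.17, edgeR adjusted p = 0.0450).

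**Figure D4:**
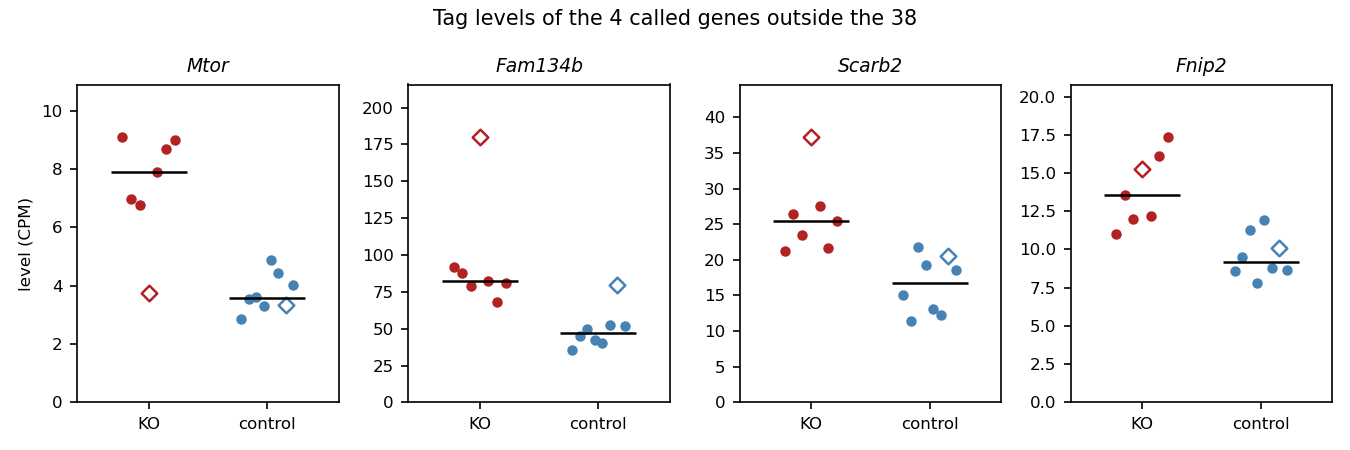
Level in CPM (vertical axes, from 0) of the 4 genes outside the set of 38 that passed the test, 1 point per library with a bar at the group median; open diamonds are KO replicate 4 and control replicate 7. The KO median lies above the control median in each, at 7.90 against 3.59 CPM for Mtor and 82.3 against 47.4 CPM for Fam134b.

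Mtor passed in all 24 alternative fits and Fam134b in 23, while Scarb2 passed in 10 and Fnip2 in 9, with edgeR adjusted p-values of up to 0.1002 and 0.260. Of the 4 genes, only Mtor and Fam134b were called without KO replicate 2, 4, 5 or 7, each left out alone. The same held without control replicate 1, 2, 4, 6 or 8. Without KO replicate 4, edgeR adjusted p-values were 0.0850 for Scarb2 and 0.0686 for Fnip2. With the replicate number as a block 1 of the 4 was called, where 1.06% of all genes were called in either direction. With the first surrogate variable 8 of the 141 rose, where 3.13% of all genes did. Among genes that did not pass, those of smallest p in lists with fewer than 2 calls were Ppt1, a lysosomal thioesterase (log2 0.51 ± 0.14, edgeR adjusted p = 0.0652), Trp53inp1, which binds LC3 (0.57 ± 0.17, edgeR adjusted p = 0.0915), Optn, a receptor of mitophagy (0.42 ± 0.13, edgeR adjusted p = 0.125), Atp6v1h, a V-ATPase subunit (0.45 ± 0.19, edgeR adjusted p = 0.316), Tecpr1, a tether in fusion (0.52 ± 0.26, edgeR adjusted p = 0.387), and Atp6ap2, an accessory V-ATPase protein (0.43 ± 0.25, edgeR adjusted p = 0.467).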

How the data were processed

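SAGE tags were counted in gastrocnemius RNA of 7 KO and 8 control mice, grouped by sample title and with as many libraries as mice per the labels. Per the labels' protocols, 500 ng of Trizol RNA per sample went into barcoded SOLiD SAGE libraries. The authors deposited raw counts per gene symbol (13602 symbols after 360 empty lines with no counts) and a table of normalized signal. A single size factor for each library turns the counts into that signal, to within a relative 5.42e-10. Per the submitters' processing notes DESeq2 and the builds mm10 and GRCm38.p1 were used; aligner, tag-to-gene rule and annotation are not given in the sources used here. Every gene had at least 22 counts in total and counts in at least 6 libraries.

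The test was edgeR 4.0.16 under R 4.3.3 (quasi-likelihood, robust, TMM, filterByExpr minimum count 10, group alone), with Benjamini-Hochberg adjustment over 11062 genes at 0.05. Standard errors are the fold change over the square root of F, and intervals are 95%. Alternatives changed the scaling, the filter, the tool, the libraries, a covariate or the block, with limma 3.58.1, DESeq2 1.42.0 and sva 3.50.0. Total counts ran from 8334436 to 19397255, and the common biological coefficient of variation was 0.291. The procedure was tested on simulated data with independent libraries and the same biological variation for every gene. Those data hold no shared pattern like the leading component, so that test does not cover its effect. Every member was named, with full values for the smallest p of each role; other pathway genes were named when called, or up to 2 per list by p. Members and lists were chosen with earlier results of these data known.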

Additional observations from a re-analysis of the deposited data

Results flagged for a closer look

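Of 74 combinations of a member and a group examined, 11 held a library separated from the rest of its group by more than Dixon's 95% value on log2 CPM; chance flags about 1 in 20 such groups. KO replicate 4 gave 8 of them. It was lowest of the KO libraries for Ulk1 (19 CPM, next 32.8), Atg13 (5.05 CPM, next 9.17), Tfeb (11.8 CPM, next 29.0) and Lamp1 (218 CPM, next 467). It was highest for Wipi1 (13.8 CPM, next 8.62), Atg12 (9.29 CPM, next 6.55), Gabarapl2 (156 CPM, next 73.3) and Lamp2 (188 CPM, next 120). Control replicate 7 was lowest of the controls for Bnip3 (1410 CPM, next 1890) and Tfeb (29.5 CPM, next 48.2). Control replicate 5 was lowest for Atg7 (2.28 CPM, next 3.85), a gene with 28 tags in its lowest library.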

How the results depend on the processing

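The count of called members was 0 higher and 0 lower in all 24 alternatives, except 1 lower (Tfeb) without control replicate 7 and KO replicate 4 together; that fit also called more genes overall (403 against 240; 465 without control replicate 7 alone), and the cause of the change was not tested. The count of other pathway genes that rose, 4, was 2 with no filter on low counts, 8 with the first surrogate variable, 1 with the replicate block and 2 to 4 with 1 library left out; its alternatives were chosen after the data were examined, and the cause of these changes was not tested. The replicate block called 117 of all genes. The replicate numbers gave no pairing: deviations of same-numbered libraries correlated between -0.45 and 0.31 over 7 pairs, 3 of them above 0.1, and 1 of 7 KO libraries matched its own number best. Cpt1b kept its direction and its side of the threshold in both of its alternatives.

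In 21 of 37 members the sign of the fold change held in every alternative. The sign changes of the others all had adjusted p-values of at least 0.428. With the first surrogate variable Becn1 was 0.037, Atg14 0.040, Atg9a 0.021, Wipi1 -0.039, Wipi2 0.047, Gabarap -0.048, Gabarapl1 -0.027, Gabarapl2 -0.16, Bnip3l -0.070, Lamp1 0.10 and Creg1 -0.098. With the replicate block Atg9a was 0.020, Gabarapl1 -0.0091, Bnip3 -0.00041 and Mcoln1 -0.030. With the library total alone Atg9a was 0.028, Wipi2 0.044 and Atg12 0.031, in a fit whose median over all genes was 0.055. Bnip3 was -0.0026 by limma voom, and Pik3c3 0.12 without the 2 libraries. With 1 library left out, the members whose sign changed ranged from -0.17 to 0.16 (Pik3c3), -0.075 to 0.018 (Atg9a), -0.066 to 0.056 (Wipi2), -0.12 to 0.019 (Atg12), -0.0066 to 1.28 (Gabarap), -0.016 to 0.11 (Gabarapl1), -0.11 to 0.41 (Gabarapl2), -0.055 to 0.11 (Bnip3), -0.33 to 0.071 (Fundc1), -0.033 to 0.077 (Mcoln1) and -0.025 to 0.17 (Creg1). A further 15 members kept their sign but moved by over 1.5 times without 1 library, among them Ulk1 (-0.094), Atg13 (-0.095), Bnip3l (0.035) and Wipi1 (0.0062) without KO replicate 4. The other 11, with all 6 of unadjusted p under 0.05 among them, did neither. Depth limits Fundc1 and Tfe3, with 3 tags in their lowest libraries.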
